A study of Homo sapiens with 6 samples.

Results

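In transcriptomics, 9 signaling factors of the JAK, STAT and IRF pathway were followed in UWB1.289 cells: the kinases JAK1, JAK2 and TYK2, the transcription factors STAT2, STAT3, IRF1, IRF7 and IRF9, and the inhibitor SOCS1. These genes were taken by name from the pathway and matched by symbol to the Ensembl identifiers of the gene count table. All 9 were found among the 63677 listed genes, and all 9 were among the 21729 genes that entered the test. UWB1.289 is an established human ovarian cancer cell line that is deficient in BRCA1, and it carries the genotype label WT in the deposited sample records. Both groups were this single line. The treated group held 3 samples that received Olaparib, an inhibitor of the poly(ADP-ribose) polymerase PARP1, at 4 µM for 24 h. The control group held 3 samples that received the vehicle DMSO for the same time. The sample labels give 4 µM, whereas the design text of the series gives 10 µM. The labels describe 3 dishes per condition, so the p-values measure the spread between dishes of one line.

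Cytokine receptors of the interferon and interleukin-6 families have no enzyme of their own and rely on JAK kinases that sit on their cytoplasmic tails. An engaged receptor brings the kinases together, and these phosphorylate STAT proteins, which pair and enter the nucleus. With type I interferon, STAT2 joins IRF9 in a complex that binds the interferon-stimulated response element (ISRE) of antiviral genes. IRF7 and SOCS1 are themselves products of this response. IRF7 amplifies it by driving interferon genes, and SOCS1 stops it by blocking the kinases. Much of this signaling runs through phosphorylation, which RNA counts do not measure.

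Total counts per sample lay between 35360458 and 39640775. Replicates of one condition differed by more than sampling noise in every pair, with a chi-square per degree of freedom of 1.81 to 4.11, so all 6 samples were counted separately. Replicate 1 stood apart in both groups, with 4.02 and 4.11 for the pairs that hold DMSO replicate 1 against 1.81 for the other pair, and 3.80 and 3.35 for those that hold Olaparib replicate 1 against 2.28. Of 12 ovarian epithelial marker genes, 11 passed the filter on low counts. The other one, WT1, had 8 counts in all 6 samples together. Of the 11 tested, CLDN4 and PAX8 were called higher by edgeR, at log2 fold changes of 0.14 and 0.10, and none was called lower. At an unadjusted p under 0.05 there were 7, all higher, with no share over all genes at hand, and their part in the results was not tested. Markers of other cell types stood far below those of ovarian epithelium. The summed normalized count of 10 T and NK cell markers was 14.4 to 23.3 after Olaparib and 16.7 to 27.5 after DMSO, with CD3D, CD2 and NKG7 at 0 in all 6 samples. For 5 B cell markers it was 15.4 to 20.2 and 17.1 to 22.6, and for 10 fibroblast and endothelial markers 3245 to 3416 and 3329 to 3458, with LUM and PECAM1 at 0. Of these 10, the endothelial marker VWF was called higher, at 67.4 ± 3.17 against 41.8 ± 1.96 normalized counts (SD, n = 3 each) and a log2 fold change of 0.68, and its part in the results was not tested.

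IRF7 was the one factor of the 9 whose transcript was called higher after Olaparib, at 1.28-fold (95% interval 1.18 to 1.40). The other 8 did not pass the test, and no factor was called lower by edgeR, DESeq2 or limma voom. At an unadjusted p under 0.05 in edgeR there were 2, IRF7 and JAK1, both higher. The fitted differences of the 8 factors that were not called lay between -0.09 for IRF9 and 0.12 for SOCS1 on the log2 scale. Thus 1 of 9 factors was called higher by edgeR (quasi-likelihood test, Benjamini-Hochberg adjusted p under 0.05), against 2.15% of all genes tested called higher and 1.21% called lower. IRF7 also passed the added condition of a fold above 1.2, which 0.723% of all genes tested met in the upward direction. The normalized counts of the 3 Olaparib samples all lay above those of the 3 DMSO samples for 4 factors, namely JAK1, STAT2, STAT3 and IRF7, and for none of the 9 did they all lie below. Over all genes tested, such separation occurred upward in 10.0% and downward in 9.29%. The median log2 fold change of the 9 factors was 0.08, beside -0.0042 over all genes tested.

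**Figure D1:**
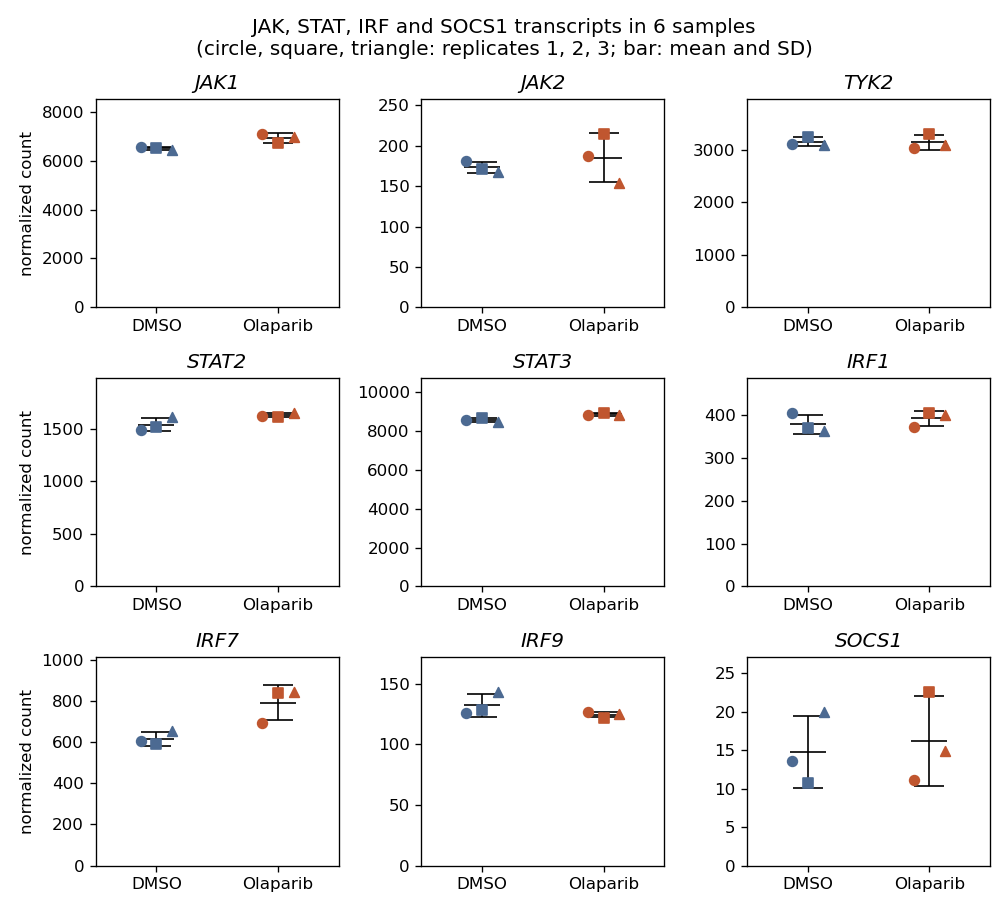
Normalized count (vertical axis, from 0) of each of the 9 factors in the 3 DMSO and the 3 Olaparib samples, with circle, square and triangle for replicates 1, 2 and 3 and bars for the mean and SD. The IRF7 points after Olaparib, at 694 to 843, all sit above the DMSO points at 588 to 654.

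IRF7 encodes the interferon regulatory factor that drives transcription of the type I interferon genes once it is phosphorylated. The gene (ENSG00000185507) lies on the minus strand at chr11:612553-615983. Its normalized counts were 694, 838 and 843 in the Olaparib samples and 607, 588 and 654 in the DMSO samples. All 3 Olaparib samples were above all 3 DMSO samples, and Olaparib replicate 1 lay nearest to the controls. The mean was 792 ± 84.4 (SD, n = 3) after Olaparib and 617 ± 33.8 (SD, n = 3) after DMSO. The log2 fold change was 0.36 (SE 0.060, 95% interval 0.24 to 0.48), with an adjusted p of 1.9e-04 (edgeR quasi-likelihood, Benjamini-Hochberg). Without DMSO replicate 1 it was 0.35 (edgeR, adjusted p = 0.00982), and without Olaparib replicate 1 it was 0.45 (adjusted p = 3.7e-06). No other factor was called without either sample. IRF7 ranked 103 among the 21729 genes by p. In bulk samples such as these, a larger share of cells that use a gene and more of its RNA per cell cannot be told apart. Markers of myeloid cells, some of which make much IRF7, summed to 129 to 155 normalized counts after Olaparib and 105 to 133 after DMSO over 10 genes. All 6 of these markers that were tested were fitted higher, at a median log2 fold change of 0.21, and none was called. Of the 10, 7 had at most 10 counts in every sample. CLEC4C, the defining marker of plasmacytoid dendritic cells, had 1 count in all 6 samples together. The part of these markers in the result was not tested.

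**Figure D2:**
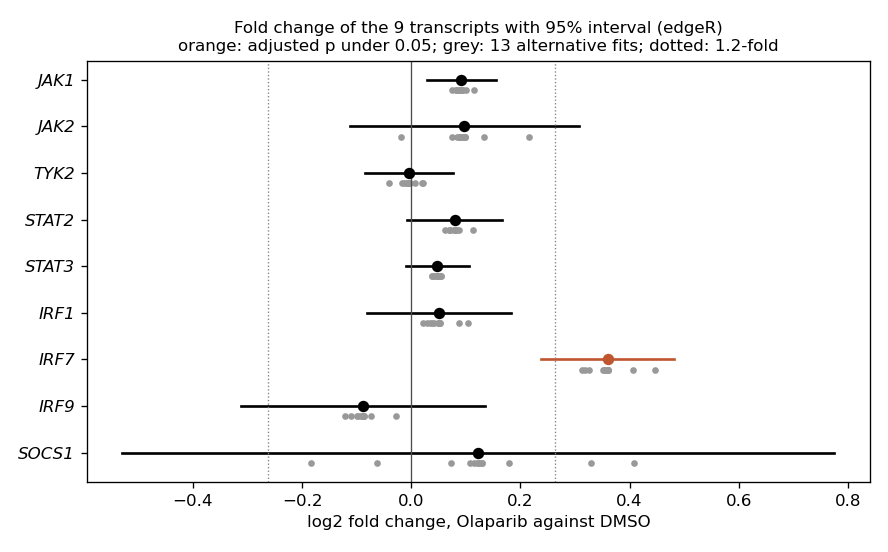
Log2 fold change of Olaparib against DMSO (horizontal axis) for the 9 factors, with points and bars for the estimate and its 95% interval, grey points for 13 alternative fits and dotted lines for 1.2-fold. The IRF7 interval of 0.24 to 0.48 is the only one coloured as called, and the SOCS1 interval is the widest of the 9.

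Among the kinases, JAK1 gave the most precise difference. JAK1 (ENSG00000162434, chr1:64833223-65067754, minus strand) serves the receptors of type I, type II and type III interferon and of the interleukin-6 family. Its normalized counts were 7086, 6703 and 6972 after Olaparib and 6546, 6531 and 6413 after DMSO. The groups did not overlap, although Olaparib replicate 2 was close to the highest control. The log2 fold change was 0.09 (SE 0.031, 95% interval 0.03 to 0.15). Its unadjusted p of 0.00592 gave an adjusted p of 0.110 over all genes (edgeR quasi-likelihood, Benjamini-Hochberg), so JAK1 was not called.

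TYK2 (ENSG00000105397, chr19:10350533-10380608, minus strand) is the partner kinase of JAK1 on the type I interferon receptor. Its normalized counts were 3034, 3305 and 3101 in treated samples against 3113, 3256 and 3097 in controls. The samples of the 2 groups were interleaved. The log2 fold change was -0.0039 with a 95% interval of -0.08 to 0.08, which leaves room for a difference in either direction well under 1.2-fold. JAK2 (ENSG00000096968, chr9:4984390-5129948, plus strand) works with JAK1 on the interferon gamma receptor. It was counted far less, with normalized counts of 187, 214 and 154 in treated samples and 181, 171 and 168 in controls. The highest and the lowest of the 6 values were both Olaparib samples. The JAK2 interval of -0.11 to 0.31 on the log2 scale (estimate 0.10, SE 0.10) was accordingly wide.

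STAT2 and STAT3 both had separate groups with small differences. STAT2 (ENSG00000170581, chr12:56341597-56360203, minus strand) carries the activation domain of the ISRE-binding complex. The normalized counts of STAT2 were 1618, 1611 and 1648 after Olaparib against 1489, 1519 and 1607 after DMSO. The Olaparib samples were tightly grouped (1626 ± 19.5, SD, n = 3), and DMSO replicate 3 came within a few counts of the lowest of them. The STAT2 log2 fold change was 0.08 (SE 0.043, 95% interval -0.0077 to 0.17), with an adjusted p of 0.399 (edgeR quasi-likelihood, Benjamini-Hochberg). STAT3 (ENSG00000168610, chr17:42313324-42388540, minus strand) transmits signals of the interleukin-6 family toward growth and survival genes. For STAT3, the normalized counts were 8819, 8934 and 8834 after Olaparib against 8600, 8655 and 8466 after DMSO. Every Olaparib sample exceeded every control, by a small margin compared with the level. The STAT3 log2 fold change was 0.05 (SE 0.029, 95% interval -0.01 to 0.11), with an adjusted p of 0.469 by the same edgeR test and Benjamini-Hochberg adjustment.

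IRF1 (ENSG00000125347, chr5:132440440-132508719, minus strand) is the factor that carries much of the interferon gamma response. Its normalized counts were 372, 405 and 399.6 after Olaparib and 405, 369.7 and 363 after DMSO. DMSO replicate 1 was as high as the highest Olaparib samples, so the groups overlapped. The log2 fold change was 0.05 (SE 0.065, 95% interval -0.08 to 0.18). Of the canonical IRF1 transcript, 16.3% lay opposite exons of the antisense gene IRF1-AS1, which had 37 to 58 counts per sample. Whether the counting used strand is not given in the sources used here.

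IRF9 (ENSG00000213928, chr14:24161234-24168043, plus strand) gives the STAT2 complex its DNA contact. Treated samples had 127, 122 and 125 normalized counts of IRF9, and controls had 125, 128 and 143. The groups overlapped, and DMSO replicate 3 stood above the other 5 samples. The log2 fold change was -0.09 (SE 0.11, 95% interval -0.31 to 0.13). The level of IRF9 is uncertain, because 93.1% of its canonical transcript lies in exons of an overlapping read-through gene on the same strand (ENSG00000259529, 22 to 30 counts per sample). By default, featureCounts leaves out reads that fall in more than 1 gene, and its setting is not given in the sources used here.

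SOCS1 (ENSG00000185338, chr16:11254417-11256204, minus strand) inhibits JAK1, JAK2 and TYK2 and is induced by the signal that it stops. It was barely counted, with 11, 22 and 15 raw counts after Olaparib and 13, 11 and 21 after DMSO. As normalized counts these were 11.1, 22.6 and 14.9 against 13.6, 10.8 and 19.9. The groups overlapped throughout. A SOCS1 difference of the size seen for IRF7 was not detectable at this depth, since the 95% interval of its log2 fold change ran from -0.53 to 0.78 around 0.12.

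The promoters of the factors were searched for the DNA letters that the pathway reads. The window ran from 250 bases before to 50 bases after each transcription start in RefSeq on GRCh38.p14, and both strands were read. The interferon element was written as GAAANNGAAA and the gamma-activated site, which STAT dimers bind, as TTCNNNGAA. At least 1 window was at hand for 8 of the 9 factors, 13 windows in all, and IRF7 had no entry. One of the motifs matched in 3 windows, and 10 held neither. Over 35116 RefSeq promoters, 3.57% held the interferon element and 7.66% the gamma-activated site. The 3 matching windows belonged to IRF1, IRF9 and SOCS1, none of which was called. They are shown so that the matched letters can be seen beside these values, as the 250 bases before the start, 5′ to 3′ along the gene, with the matched bases in capitals.
IRF1, chr5:132490774-132491023, minus strand: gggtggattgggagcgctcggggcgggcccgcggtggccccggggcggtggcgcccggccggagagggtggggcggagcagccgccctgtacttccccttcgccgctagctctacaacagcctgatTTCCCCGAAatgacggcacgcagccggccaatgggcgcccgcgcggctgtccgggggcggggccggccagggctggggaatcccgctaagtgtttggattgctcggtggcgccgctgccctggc
IRF9, chr14:24161015-24161264, plus strand: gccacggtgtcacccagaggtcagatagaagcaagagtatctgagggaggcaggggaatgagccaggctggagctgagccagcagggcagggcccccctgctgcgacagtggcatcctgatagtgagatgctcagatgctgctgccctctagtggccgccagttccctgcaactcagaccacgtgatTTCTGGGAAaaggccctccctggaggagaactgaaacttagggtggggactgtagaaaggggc
SOCS1, chr16:11256205-11256454, minus strand: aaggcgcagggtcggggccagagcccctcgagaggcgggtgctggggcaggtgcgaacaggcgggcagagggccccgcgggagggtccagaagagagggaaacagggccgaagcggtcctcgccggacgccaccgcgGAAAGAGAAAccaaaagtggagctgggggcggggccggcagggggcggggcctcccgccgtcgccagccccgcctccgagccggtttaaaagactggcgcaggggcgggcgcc
The IRF1 match is a gamma-activated site that begins 124 bases before the start, and the IRF9 match is one that begins 63 bases before it. The SOCS1 match is an interferon element that begins 113 bases before the start. A match describes the letters alone and does not show that a factor was bound in these cells.

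The factors differed far more from one another than between treatments. Per length, as CPM (counts scaled by library size) per kilobase of canonical transcript, the DMSO means ran from 46.5 ± 0.529 (SD, n = 3) for STAT3 to 0.319 ± 0.101 (SD, n = 3) for SOCS1, a 146-fold range. The range was 92.6-fold with the length of all annotated exons and 581-fold with no length, and in both JAK2 stood above IRF9. After STAT3 came JAK1 at 34.1 ± 0.382 and TYK2 at 19.9 ± 0.550, so that the kinases of the type I interferon receptor stood well above JAK2, at 0.658 ± 0.0262 (SD, n = 3 each). The components of the ISRE-binding complex were counted unequally, with STAT2 at 9.33 ± 0.372 and IRF9 at 2.17 ± 0.155 (SD, n = 3 each). Because of the overlapping read-through gene, the level of IRF9 and its place in the order are uncertain. IRF7 stood at 8.57 ± 0.470 and IRF1 at 2.85 ± 0.168 in the same samples.

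In every neighbouring pair of this order but one, all 6 samples of the higher gene lay above all 6 of the lower gene. The exception was STAT2 and IRF7, whose ranges overlapped. IRF7 was below STAT2 in the DMSO means and above it in the Olaparib means, at 11.0 ± 1.17 against 9.86 ± 0.118 (SD, n = 3 each). This crossing depended on the length used. With all annotated exons, IRF7 was above STAT2 in both groups, at 6.31 against 4.41 after DMSO and 8.10 against 4.67 after Olaparib. With no length, IRF7 was below STAT2 in both, at 16.5 against 41.1 CPM after DMSO and 21.2 against 43.4 after Olaparib. Lengths came from GENCODE release 44. With the length of all annotated exons in place of the canonical transcript, 5 of the 9 factors kept their place in the order, and with no length, 7 did.

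**Figure D3:**
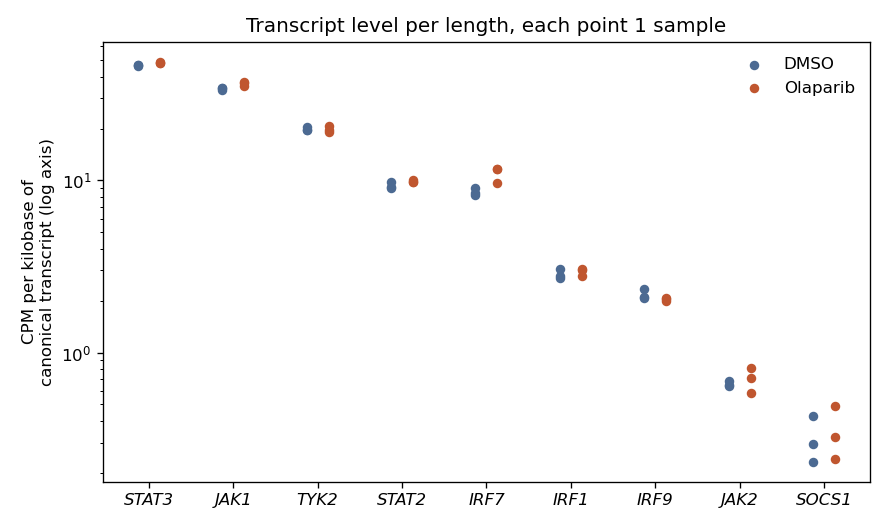
CPM per kilobase of canonical transcript (vertical log axis) for the 9 factors, ordered by the DMSO mean, each point 1 sample and colours for DMSO and Olaparib. The STAT3 means are 46.5 and 48.1 and the SOCS1 means 0.319 and 0.350, and only the STAT2 and IRF7 points overlap between neighbours.

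IRF7 was also set against each other factor within the same sample, a comparison that needs no scaling between libraries and was added after the data were seen. The log2 ratio of IRF7 to the other factor was higher after Olaparib for all 8, by 0.24 to 0.44. IRF7, the only factor called, was the numerator of every ratio. Its log2 fold change of 0.36 was the largest of the factors, followed by 0.12 for SOCS1. The shared upward direction therefore largely restates the IRF7 difference, and the 8 ratios are not separate results. For TYK2, STAT2, STAT3, IRF1 and IRF9, the 3 Olaparib ratios were all above the 3 DMSO ratios. Against JAK1, JAK2 and SOCS1 they overlapped. With 3 against 3 samples, the exact two-sided permutation test cannot go below 0.1. That was the value of the 5 separated ratios (0.16 after Benjamini-Hochberg adjustment over the 8). IRF7 was picked from these same data and is shared by all 8 ratios. These p-values therefore cannot decide whether IRF7 differed from the other factors. The largest difference was in the ratio to IRF9, with a mean log2 ratio of 2.66 after Olaparib and 2.22 after DMSO, beside the overlap that makes the IRF9 level uncertain.

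Of 18 JAK, STAT, IRF and SOCS genes outside the 9 factors, 15 were tested, 1 was called higher and none lower, at a median log2 fold change of -0.0050. The one called was SOCS3, the inhibitor induced by STAT3. The normalized counts of SOCS3 were 296, 289 and 298 in treated samples and 209, 235 and 249 in controls, with a log2 fold change of 0.35 (SE 0.079) and an adjusted p of 0.00777 (edgeR quasi-likelihood, Benjamini-Hochberg). Without DMSO replicate 1, its lowest sample, the SOCS3 log2 fold change was 0.28 and the adjusted p 0.0583. SOCS7 was not matched. Of the 15 tested genes, 7 were fitted higher and 8 lower, the lowest at -0.09. At an unadjusted p under 0.05 in edgeR there were 2 higher and 1 lower. STAT4, CISH and STAT5A were among those fitted higher and not called, and none of the 8 fitted lower is named here. Their log2 fold changes were 0.64 (95% interval -0.08 to 1.37), 0.40 (-0.03 to 0.83) and 0.13 (0.03 to 0.23). The groups were separate for STAT4, at a mean of 13.5 against 8.62 normalized counts, and for STAT5A, at 682 against 622. IRF4 and IRF8, factors of lymphoid and myeloid cells, had 9 counts and 1 count in total and were not tested.

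Upstream of the factors, all 16 receptor subunits that bind JAK kinases were tested and none was called by edgeR, DESeq2 or limma voom, while 2 had an unadjusted p under 0.05, both higher. Their median log2 fold change was 0.04. The type I interferon receptor subunits IFNAR1 and IFNAR2 had log2 fold changes of -0.03 and 0.04, and IFNGR1 and IFNGR2 of the interferon gamma receptor 0.04 and -0.08. Among 23 negative regulators and partners of the factors, 22 were tested and 2 were called higher, none lower, with a median of 0.0060. These were KPNA2, an importin that carries proteins into the nucleus, at 21807 ± 219 against 18318 ± 371 normalized counts (SD, n = 3 each), and IFI35, a partner of the STAT-binding protein NMI, at 338 ± 32.7 against 270.1 ± 20.8 (SD, n = 3 each). The log2 fold changes were 0.25 for KPNA2 and 0.32 for IFI35, which was not called by DESeq2 (adjusted p = 0.0537) or without DMSO replicate 2, DMSO replicate 3 or Olaparib replicate 2 in turn (edgeR adjusted p = 0.108, 0.0907 and 0.145). USP18, which silences the type I interferon receptor and is itself an interferon target, stood at 0.17 with an adjusted p of 0.110 (edgeR quasi-likelihood, Benjamini-Hochberg). IFI35 and USP18 also belong to the list of ISRE-driven genes described next, so the IFI35 call counts in both lists.

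Downstream, the targets differed by list. Of 40 ISRE-driven genes of type I interferon, all were tested, 28 were called higher and none lower, 23 of them with a fold above 1.2, and the median log2 fold change was 0.37. The fitted change was upward for 39 of the 40. DESeq2 called 17 of them higher, and edgeR without DMSO replicate 2 called 18. The list was chosen with earlier results of these data known. Those with the smallest p were OAS3, OAS2, IFIT1, MX1, PARP14, OAS1, DDX60 and IFI44, at log2 fold changes of 0.52, 0.94, 1.04, 1.05, 0.37, 0.63, 0.49 and 0.40. The OAS genes encode enzymes that activate an antiviral RNase, and IFIT1 and MX1 encode proteins that bind viral RNA and trap viral capsids. Of 30 interferon gamma and IRF1 target genes, 27 were tested and 1 was called higher, none lower, with a median of 0.06. This was GBP5, a guanylate-binding protein, at 231 ± 13.4 against 148 ± 16.8 normalized counts (SD, n = 3 each) and a log2 fold change of 0.65. Without Olaparib replicate 1, 4 genes of this list were called higher.

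Of 26 STAT3 targets of the interleukin-6 family, 24 were tested and 2 were called higher, none lower, with a median of 0.03. They were SOCS3 and BIRC5, the inhibitor of apoptosis survivin, which stood at 5894 ± 153 against 5211 ± 130.0 normalized counts (SD, n = 3 each). The SOCS3 call is the one already given among the other family genes, so it counts in both lists. Whether either difference came through STAT3 was not tested. Without DMSO replicate 1, 1 of this list was called higher, and without Olaparib replicate 1, 1 was called lower.

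**Figure D4:**
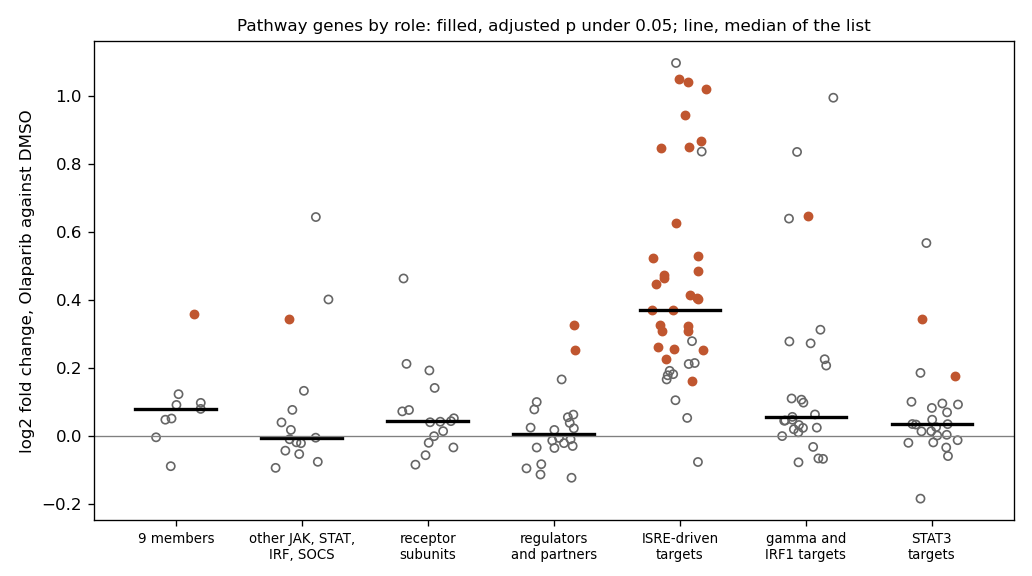
Log2 fold change of Olaparib against DMSO (vertical axis) for the 9 factors and the tested genes of 6 pathway lists, with filled points for an adjusted p under 0.05 and a line for the median of each column. The median of the ISRE-driven targets is 0.37, and those of the other columns lie between -0.0050 and 0.08.

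The list genes most like IRF7 in pattern were ISRE-driven genes. Among 133 list genes whose mean count reached 20, those most like IRF7 over the 6 samples were OAS3 (Pearson r = 0.992 of log2 CPM), IFIT1 (r = 0.988) and OAS1 (r = 0.972). These values describe 6 samples that share a treatment contrast, their library and its depth, so part of the likeness is the difference between groups itself. They were also picked as the highest of 133, which favours high values. Among the DMSO samples, replicate 3 was the highest for IRF7, OAS3 and IFIT1, and replicate 1 for OAS1. The normalized counts of OAS3 were 3745, 4798 and 4821 with Olaparib against 3121, 2977 and 3211 with DMSO. Olaparib replicate 1 was the lowest treated sample for OAS3, as it was for IRF7. The sum of the 40 genes was 42619, 49318 and 51954 with Olaparib against 40382, 37711 and 40958 with DMSO, with the same treated sample nearest to the controls. For IRF1, too, Olaparib replicate 1 was the lowest treated sample, whereas for STAT2 it lay between the other treated samples and for IRF9 it was the highest of them.

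**Figure D5:**
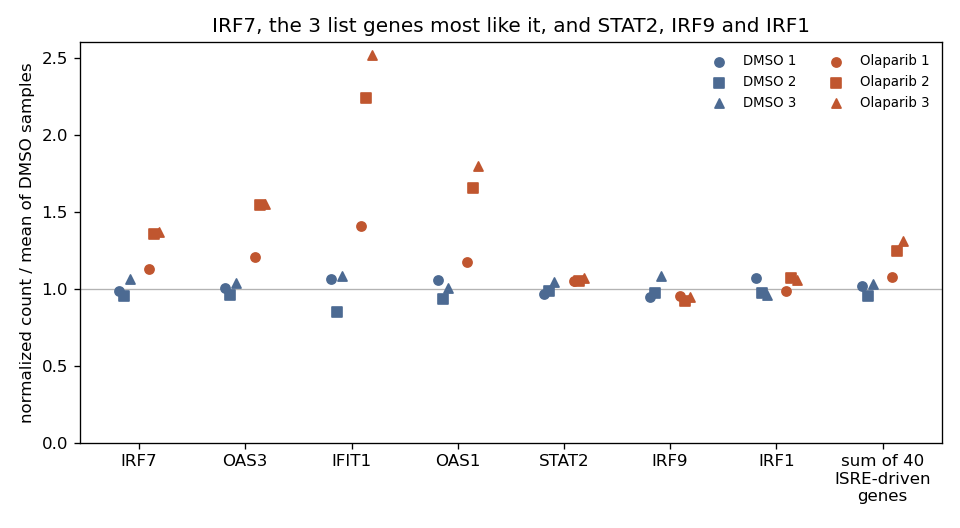
Normalized count divided by the mean of the 3 DMSO samples (vertical axis, from 0) for IRF7, the 3 list genes most like it, STAT2, IRF9, IRF1 and the sum of the 40 ISRE-driven genes, each point 1 sample. Olaparib replicate 1 (orange circle) is the lowest treated point for IRF7, at 1.13, for OAS3, IFIT1 and OAS1, and for the sum, at 1.07.

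Of the 40 ISRE-driven genes, 33 had a RefSeq promoter. In 24 of these, at least 1 window matched the interferon element as written, GAAANNGAAA. By window, 29 of 46 held it, or 63.0%, beside the 3.57% of all promoters, and the list was named for this element. Of the 3 genes most like IRF7, OAS1 had a window with no match to GAAANNGAAA and 1 gamma-activated site. The pattern demands 2 free bases. GAAA repeats with another spacing, such as gaaacgaaa in the windows of OAS1 and RIGI, were therefore not counted as matches. The windows of OAS3 and IFIT1 each held the interferon element at 2 places and are shown in the same way as those of the factors.
OAS3, chr12:112938224-112938473, plus strand: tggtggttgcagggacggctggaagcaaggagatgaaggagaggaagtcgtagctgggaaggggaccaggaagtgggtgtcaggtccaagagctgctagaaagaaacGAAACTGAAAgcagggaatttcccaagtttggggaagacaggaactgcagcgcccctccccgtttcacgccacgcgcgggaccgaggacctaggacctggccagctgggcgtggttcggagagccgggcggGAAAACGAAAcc
IFIT1, chr10:89392373-89392622, plus strand: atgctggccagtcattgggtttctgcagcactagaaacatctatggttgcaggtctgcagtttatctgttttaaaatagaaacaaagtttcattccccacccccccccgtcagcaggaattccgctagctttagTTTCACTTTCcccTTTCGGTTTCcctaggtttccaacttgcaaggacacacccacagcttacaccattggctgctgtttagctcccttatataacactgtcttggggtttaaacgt
The OAS3 matches begin 143 and 12 bases before the start and read along the gene. The IFIT1 matches begin 116 and 103 bases before it and read on the other strand, where the printed letters are the reverse complement. The SOCS1 window printed above held the same element once, and SOCS1 was counted at 11 to 22 reads per sample.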

How the data were processed

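RNA from 3 Olaparib and 3 DMSO samples of UWB1.289 cells was sequenced from poly(A) libraries, with 500 ng of total RNA per sample in the labels. The authors deposited a table of raw counts per gene, whole numbers without normalization. According to the study's methods and the submitters' processing notes, reads were trimmed with Trimmomatic, mapped with STAR to hg38, checked for duplicates with Picard and assigned with featureCounts. Whether duplicates were removed is not given in the sources used here.

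Genes with more than 10 counts in total were kept, scaled by the TMM method and tested with edgeR 4.0.16 (glmQLFit and glmQLFTest, R 4.3.3, limma 3.58.1), with Benjamini-Hochberg adjustment over all 21729 genes. The test was also tried on simulated counts with known changes, but the outcome is not given here and no result rests on it. Normalized counts are counts scaled to a common library size. Symbols, coordinates and transcript lengths came from GENCODE release 44 on GRCh38, which held 81.9% of listed identifiers and 96.0% of those tested. The table holds no gene lengths, and the release of its gene models is not settled, so these lengths replace the intended ones. The factors and lists were chosen with earlier results of these data known. All factors were named, and from each list the called genes, at most 8 by p, with the 3 list genes most like a called factor. Some list genes that were not called are named as well, such as STAT4, IFNAR1 and USP18. One further gene of the pathway is not reported here. Alternatives were DESeq2 1.42.0, limma voom, other scalings and filters, stricter thresholds, a replicate block and each sample left out. The Benjamini-Hochberg adjustment of the exact permutation tests used scipy 1.17.1, and figures were drawn with matplotlib 3.10.9 from Python 3.11.15.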

Additional observations from a re-analysis of the deposited data

How the results depend on the processing

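IRF7 was called in all 13 alternative fits, with log2 fold changes of 0.31 to 0.45 and adjusted p-values of 1.5e-08 to 0.00982 (edgeR, DESeq2 or limma voom, Benjamini-Hochberg). No other factor was called in any of them apart from JAK1 in the fit with a replicate block. The replicate numbers did not pair the samples, since samples of the same number had correlations of -0.204, 0.263 and -0.319 over 11997 genes. With the replicate block, 2 factors were called, JAK1 at 0.09 (adjusted p = 0.0264 in edgeR's quasi-likelihood test), and 805 genes were higher and 517 lower over all genes. In the same blocked fit, 4 regulators and partners, 4 interferon gamma and IRF1 targets and 4 STAT3 targets were called higher, and 1 regulator and 1 STAT3 target lower. DESeq2 called 154 genes lower, 1 regulator higher and 17 ISRE-driven genes higher. An adjusted p under 0.01 left 242 genes higher, 105 lower and 1 regulator. With a fold above 1.2, 157 were higher and 105 lower, with 1 regulator and 1 STAT3 target. Without a filter on low counts, 3 interferon gamma and IRF1 targets were higher. The cause of these shifts was not tested.

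With each sample left out in turn, 265 to 541 genes were higher and 124 to 323 lower. List counts called higher were 0 to 1 for the other family genes, 0 to 1 for receptors, 1 to 3 for regulators, 18 to 31 for ISRE-driven genes (18 without DMSO replicate 2), 1 to 4 for interferon gamma and IRF1 targets and 1 to 3 for STAT3 targets. In the same fits, 0 to 1 STAT3 targets were called lower. The sign changed for JAK2 (-0.020 to 0.21), TYK2 (-0.040 to 0.022) and SOCS1 (-0.18 to 0.41). IFI35 was not called by DESeq2 or in 3 of the 6 fits with a sample left out. The order of levels kept 7 of 9 places without length and 5 with the length of all annotated exons. Depth limits SOCS1, and JAK2 and IRF9 were known to no better than 0.10 and 0.11 (SE, log2). No group exceeds 3 samples, so single samples far from their group were not tested for.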
